A study of Mus musculus with 6 samples.

Results

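The genes described here encode 7 enzymes that handle hydroxyacids and ketone bodies in muscle: Adhfe1, D2hgdh, Idh1, Idh2, Bdh1, Oxct1 and Acat1. They are 7 of the 19938 genes that could be named on the array, and all 7 were among the 16487 bright enough to be tested. Each had a single probe set carrying its symbol alone, so the step in which probe sets were selected on their mean over the 6 arrays had nothing to decide. Adhfe1 was brought in with its knockout difference already known, and the other 6 were picked by function with earlier results of these arrays in view. The difference of Adhfe1 is therefore given as a description without a test.

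The study set out to compare metabolic gene expression in muscle with and without SPARC, a secreted glycoprotein that binds collagen. Gastrocnemius RNA of 12-week-old males was hybridised to Affymetrix gene arrays, with 3 arrays from homozygous Sparc knockouts (KO) and 3 from wild types (WT). Both genotypes carry the strain label B6;129S-Sparctm1Hwe/J, and no treatment is named for either. No Cre or transgene is named in the labels, which give neither litter nor run day. Each array was taken as 1 mouse, after the design text.

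ADHFE1 is the mitochondrial hydroxyacid-oxoacid transhydrogenase, which oxidises gamma-hydroxybutyrate to succinic semialdehyde while reducing 2-oxoglutarate to D-2-hydroxyglutarate. D2HGDH turns D-2-hydroxyglutarate back into 2-oxoglutarate, and the isocitrate dehydrogenases IDH1, in cytosol and peroxisomes, and IDH2, in mitochondria, make 2-oxoglutarate with NADPH. Muscle burns ketone bodies through BDH1, which oxidises 3-hydroxybutyrate to acetoacetate, OXCT1, which charges acetoacetate with coenzyme A, and ACAT1, the thiolase that splits acetoacetyl-CoA into acetyl-CoA.

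Sparc transcript, the check of the labels, read 6.74, 6.46 and 5.83 (log2 intensity) in the knockouts, against 11.80, 11.73 and 11.87 in the wild types. Markers of fast fibres, the bulk of this muscle, lay at or above the 99.5th percentile of all tested genes. The knockout arrays differed more among themselves than the wild type arrays, with a median SD per gene of 0.163 in knockouts and 0.0912 in wild types. Knockout array 2 stood apart from the other knockouts, at 2.45 on the first principal component, where knockout arrays 1 and 3 were at 26.5 and 19.8 and the wild types at -16.8 to -15.8. At an adjusted p of 0.05 in limma's moderated test 164 genes passed, a count that was 1017 without knockout array 2 and 27 to 32 when a wild type array was left out.

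Adhfe1 stood at 7.62, 8.02 and 7.83 (log2 intensity) in knockout arrays 1, 2 and 3, against 9.19, 9.31 and 9.21 in wild type arrays 1, 2 and 3. All 3 knockouts lay below all 3 wild types, and the highest knockout was 1.18 log2 units under the lowest wild type. The deposited intensities were 196, 259 and 227 in the knockouts and 586, 635 and 592 in the wild types. The mean was 7.82 ± 0.20 in knockouts and 9.24 ± 0.06 in wild types (SD, n = 3 each), a log2 difference of -1.42 ± 0.12 (SE), with a 95% interval of -1.68 to -1.15. Adhfe1 was thus 2.67-fold lower in knockout muscle, and 10 of the tested genes had a larger decrease. As Adhfe1 was chosen with this difference known, its interval describes the spread between arrays and is not a test. Knockout array 2, the one nearest to the wild types over all genes, was also the nearest here. Without it the difference was -1.52. In whole muscle RNA, fewer cells of a type and less RNA per cell cannot be told apart.

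Leaving Adhfe1 aside, 0 of the other 6 enzymes passed in limma's fit across all genes, where 0.995% of the genes tested passed. Idh2 alone of these 6 had an unadjusted p under 0.05, against 18.4% of all genes. Adhfe1 and Idh2 had knockout values below the wild type values without overlap, a pattern found in 13.8% of all genes, and 0 of the 7 lay above without overlap, against 11.1%. Since the set was drawn up with this comparison known, nothing is read from these shares. The median log2 difference of the 7 was -0.03, and that of all genes tested was 5.34e-05.

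**Figure D1:**
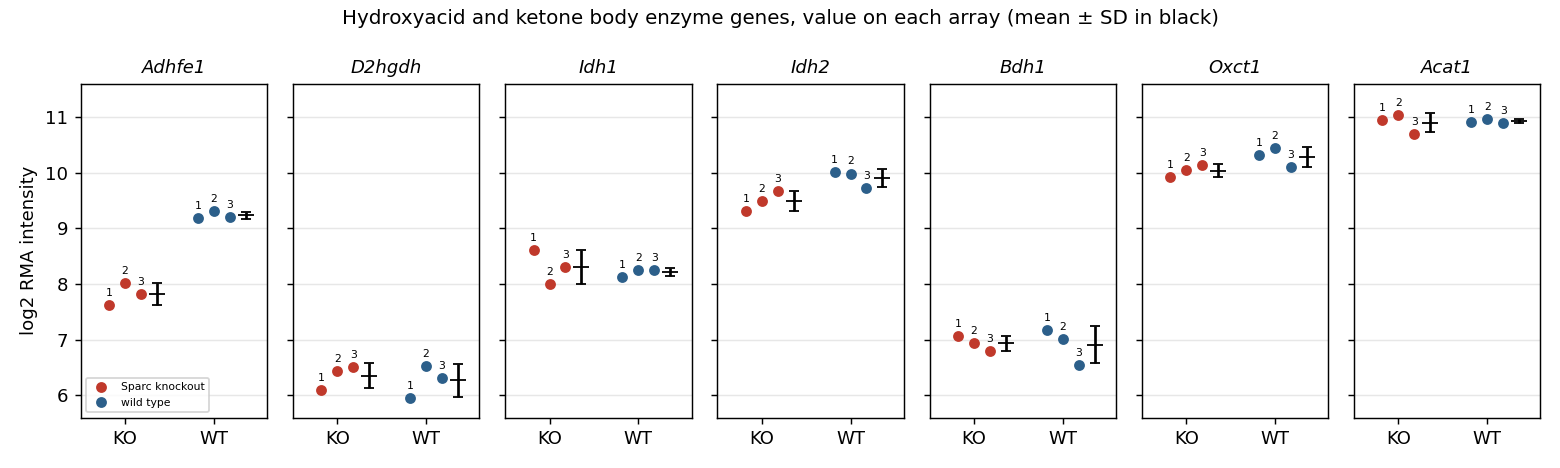
Log2 intensity of each of the 7 enzyme genes on every array, knockouts in red and wild types in blue, with array numbers above the points and the mean ± SD in black. The Adhfe1 groups are separated by 1.18 log2 units and those of Idh2 by 0.05, while the other 5 genes overlap.

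D2hgdh, whose enzyme removes the D-2-hydroxyglutarate that ADHFE1 makes, read 6.09, 6.45 and 6.51 in the knockouts, against 5.96, 6.53 and 6.32 in the wild types. The groups overlapped, with array 1 the lowest in both. The log2 difference was 0.08 ± 0.17 (SE; limma adjusted p = 0.855), with a 95% interval of -0.30 to 0.46. The Adhfe1 difference of -1.42, itself a description, lies outside that interval, and whether the differences of the 2 genes differ was not tested.

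The groups overlapped for the cytosolic Idh1 and did not for the mitochondrial Idh2. Idh1 was at 8.62, 7.99 and 8.31 in the knockouts, against 8.13, 8.26 and 8.26 in the wild types, so that the knockouts spanned the wild types on both sides. Its log2 difference was 0.09 ± 0.15 (SE; limma adjusted p = 0.808), with a 95% interval of -0.25 to 0.43. Idh2 was at 9.31, 9.50 and 9.67 in the knockouts, against 10.01, 9.99 and 9.72 in the wild types. Every knockout lay below every wild type, but by only 0.05 log2 units at the nearest, where knockout array 3 approached wild type array 3. The mean of Idh2 was 9.49 ± 0.18 in knockouts and 9.91 ± 0.16 in wild types (SD, n = 3 each). The log2 difference of -0.41 ± 0.12 (SE) had a 95% interval of -0.69 to -0.14 and did not pass after adjustment over all genes (limma adjusted p = 0.133). Whether the differences of Idh1 and Idh2 differ from each other was not tested.

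Of the ketone body enzymes, Oxct1 had the largest difference. It read 9.92, 10.04 and 10.14 in the knockouts, against 10.32, 10.44 and 10.09 in the wild types. Knockout array 3 lay above wild type array 3, and the other knockouts lay below all wild types. The log2 difference was -0.25 ± 0.11 (SE; limma adjusted p = 0.280), with a 95% interval of -0.51 to 0.00457. Bdh1, which acts one step earlier, was at 7.06, 6.95 and 6.79 in the knockouts and at 7.18, 7.02 and 6.54 in the wild types. Wild type array 3 was the lowest of the 6, and the difference of 0.02 ± 0.16 (SE; limma adjusted p = 0.966) had a 95% interval of -0.35 to 0.40. Acat1, which acts one step later and also serves isoleucine breakdown, was at 10.95, 11.03 and 10.70 in the knockouts and at 10.91, 10.96 and 10.90 in the wild types. Its difference was -0.03 ± 0.10 (SE; limma adjusted p = 0.930), with the narrowest 95% interval of the 7, -0.26 to 0.20.

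Among the 21 pairs of these genes, Idh2 and Oxct1 followed each other most closely, with a Pearson r of 0.95 over the 6 arrays and of 0.91 after each group's mean was removed. The median r of all pairs was -0.05 over the 6 arrays, and the lowest was -0.47, for Bdh1 and D2hgdh. These values describe 6 arrays that share genotype groups and normalization, and carry no test. Adhfe1 had an r of 0.86 with Idh2 and 0.76 with Oxct1, which were 0.45 and 0.47 with group means removed. With Idh1 its r was -0.38 over the 6 arrays and -0.89 with group means removed, the lowest such value of the 21 pairs, and with D2hgdh it was -0.07 and 0.67.

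The upstream sequences of Idh2 and Oxct1 are shown because this pair had the highest correlation, and that of Idh1 as the relative of Idh2. Each is the 250 bases before a RefSeq transcription start of GRCm38.p6, 5′ to 3′ on the gene's strand. Capitals mark the GC box letters GGGCGG and the CCAAT box letters CCAAT on either strand. The Idh2 window is chr7:80115351-80115600 (minus strand), the Oxct1 window chr15:4026178-4026427 (plus strand) and the Idh1 window, of 2 for that gene, chr1:65186480-65186729 (minus strand).
Idh2: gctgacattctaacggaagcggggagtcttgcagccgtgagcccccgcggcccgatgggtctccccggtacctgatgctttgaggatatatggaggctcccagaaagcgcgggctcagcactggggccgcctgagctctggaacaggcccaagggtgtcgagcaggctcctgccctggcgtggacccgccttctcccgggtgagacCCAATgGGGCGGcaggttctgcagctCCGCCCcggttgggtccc
Oxct1: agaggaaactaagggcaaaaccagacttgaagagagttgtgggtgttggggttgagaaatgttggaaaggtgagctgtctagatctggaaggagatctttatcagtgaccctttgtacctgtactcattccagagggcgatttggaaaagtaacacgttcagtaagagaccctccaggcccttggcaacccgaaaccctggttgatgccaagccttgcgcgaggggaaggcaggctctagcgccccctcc
Idh1: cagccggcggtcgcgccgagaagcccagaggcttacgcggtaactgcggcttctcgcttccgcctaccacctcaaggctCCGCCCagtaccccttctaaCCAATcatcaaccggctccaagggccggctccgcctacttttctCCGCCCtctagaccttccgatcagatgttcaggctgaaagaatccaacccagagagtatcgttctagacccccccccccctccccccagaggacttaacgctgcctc

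Of the 7 enzymes, 5 entered this search with 7 windows, and Adhfe1 and Acat1 were not analysed here. The Idh2 window held 2 GC boxes and 1 CCAAT box, the Idh1 window shown held 2 and 1, and the Oxct1 window held neither. The other Idh1 window, not shown, held 1 GC box and 0 CCAAT boxes. Over all 32851 windows of the same length, 32.7% held a GC box and 33.8% a CCAAT box. The windows shown also differed in base composition, with a GC content of 67.2% for Idh2, 52.0% for Oxct1 and 61.6% for Idh1, against a median of 52.4%. The half-site AAGGTCA of oestrogen-related receptors, the TATA box TATAAA and the E-box CAGCTG, found in 4.08%, 12.4% and 13.0% of all windows, were not among the letters of any of the 7 windows. These motifs were picked after the expression values were seen, and a match is a description of the letters.

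Around these enzymes, 24 further genes of 2-oxoglutarate and hydroxyacid metabolism were listed, of which 23 were on the array under a symbol of their own and 21 were tested. None passed in limma over all genes, while 5 of the 21 had an unadjusted p under 0.05, each with a negative difference, beside 18.4% of all genes tested. Over all genes, too, more of those differences were negative (1691) than positive (1345), and nothing particular to the list is read from the count. The differences in the list were negative in 14 and positive in 7, with a median of -0.07. Gpt2, the mitochondrial alanine aminotransferase, which interconverts 2-oxoglutarate and glutamate, had the smallest p. It read 8.59, 9.23 and 8.83 in the knockouts against 9.57, 9.70 and 9.69 in the wild types, without overlap, a difference of -0.77 ± 0.15 (SE; limma adjusted p = 0.0602). Grhpr, glyoxylate and hydroxypyruvate reductase, read 7.70, 8.05 and 7.46 in the knockouts against 8.39, 8.25 and 8.37 in the wild types (difference -0.60 ± 0.15 SE; limma adjusted p = 0.0930). Hibadh, the 3-hydroxyisobutyrate dehydrogenase of valine breakdown, had a difference of -0.41 ± 0.10 (SE; limma adjusted p = 0.102) in its brighter probe set and of 0.27 in its dimmer one. Without knockout array 2 these 3 passed, at -0.95 for Gpt2, -0.75 for Grhpr and -0.50 for Hibadh, where 1017 of the 16487 genes tested passed. With any other single array left out, none of these 3 passed.

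The products of ADHFE1 meet further enzymes of this list. Aldh5a1, which oxidises succinic semialdehyde to succinate, read 5.75, 5.97 and 5.55 in the knockouts against 6.03, 6.10 and 6.37 in the wild types. The groups did not overlap, and the difference of -0.41 ± 0.14 (SE) had a limma adjusted p of 0.170. Akr7a5, an aldo-keto reductase that reduces succinic semialdehyde, was at -0.27 ± 0.09 (SE; limma adjusted p = 0.177), again without overlap, and is named after its values were seen. The NAD-linked isocitrate dehydrogenase subunits Idh3a, Idh3b and Idh3g, likewise named afterwards, had differences of -0.10, -0.07 and 0.04.

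Of 15 other ketone body genes, 11 were on the array and 10 were tested. None passed in limma over all genes, and the unadjusted p was under 0.05 for 2 positive differences and 1 negative one, beside 18.4% of all genes tested. The median difference was -0.04, and 2 genes had knockouts above wild types without overlap, beside 11.1% of all genes. Hmgcll1 read 5.47, 4.98 and 4.96 in the knockouts, against 4.55, 4.45 and 4.10 in the wild types. All knockouts lay above all wild types, with a difference of 0.77 ± 0.17 (SE; limma adjusted p = 0.0797). Hmgcll1 was dim, at the 15.5th percentile of all tested genes by level, and fell out under the 40th percentile filter. Slc16a1, which encodes the monocarboxylate transporter MCT1 that carries ketone bodies and lactate, read 7.91, 8.06 and 7.87 in the knockouts against 7.54, 7.81 and 7.65 in the wild types. These groups did not overlap either, with a difference of 0.28 ± 0.11 (SE; limma adjusted p = 0.211). Bsg, basigin, the chaperone of that transporter, was at -0.26 ± 0.11 (SE; limma adjusted p = 0.247). It passed at -0.38 without knockout array 2, where 1017 of all genes passed, and with no other single array left out. Bdh2, a cytosolic dehydrogenase related to BDH1, was at -0.27 ± 0.13 (SE; limma adjusted p = 0.302).

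ADHFE1 belongs to the iron-dependent alcohol dehydrogenases, and the zinc-dependent ones are a separate family. Of 6 such genes 4 were tested, and none passed in limma over all genes. The median difference was 0.05, and Adh5 alone had an unadjusted p under 0.05, beside 18.4% of all genes tested. Adh5, the glutathione-dependent formaldehyde dehydrogenase, was at -0.27 ± 0.11 (SE; limma adjusted p = 0.217). Adh1, Adh6b and Adh7 were at -0.15, 0.24 and 0.38, with limma adjusted p-values of 0.298 to 0.708, and a second probe set of Adh6b was at 0.02. Adh7 was high in knockout array 1 alone, at 6.80 against 5.43 and 5.63 in knockout arrays 2 and 3 and 5.46 to 5.69 in the wild types.

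**Figure D2:**
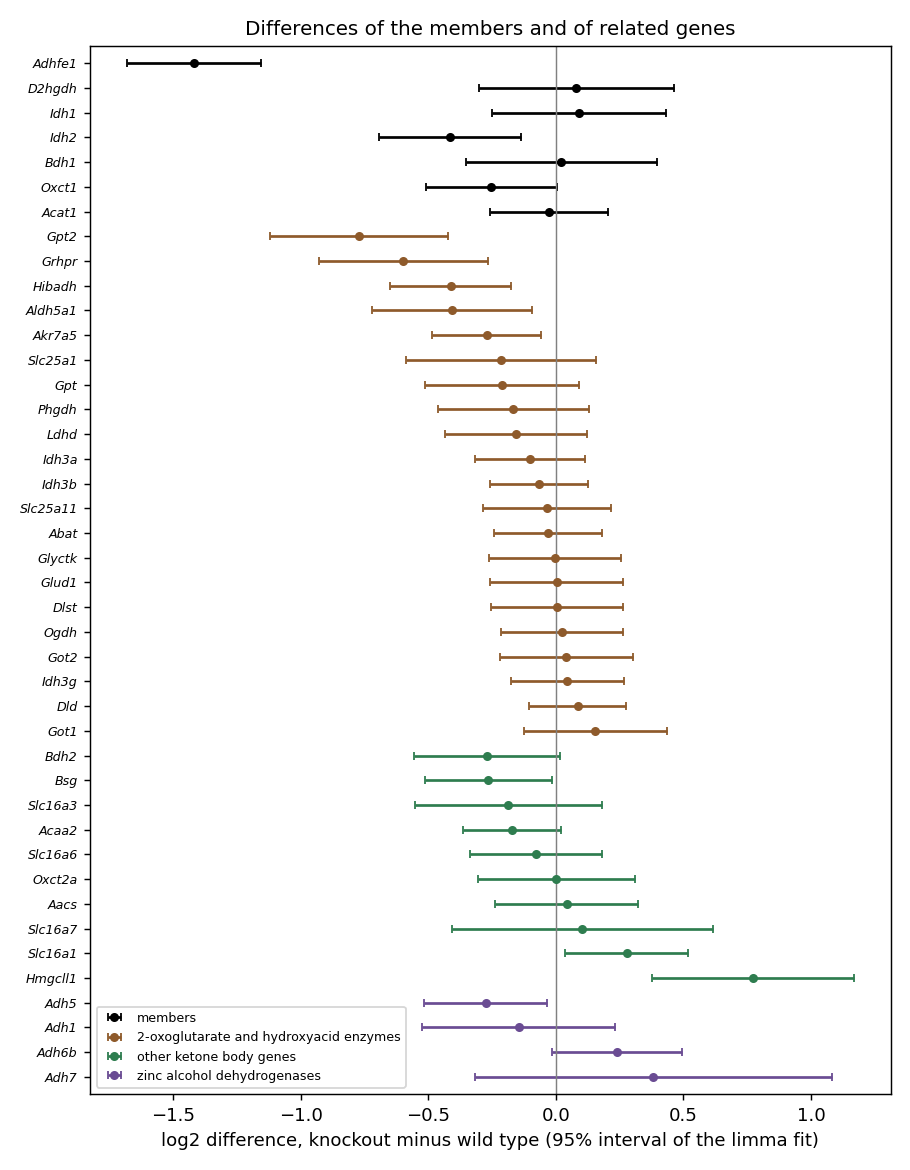
Log2 difference, knockout minus wild type, of the 7 enzymes (black) and of the tested genes of the 3 related lists, with the 95% interval of the limma fit. Adhfe1 lies at -1.42, with an interval given as a description, and the related genes run from -0.77 for Gpt2 to 0.77 for Hmgcll1.

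Levels of fat cell markers were set beside Adhfe1. Of 14 adipocyte markers 13 were measured, 11 of them with a negative difference and 0 past the adjusted threshold in limma. For 3 negative and 1 positive difference the unadjusted p was under 0.05, beside 18.4% of all genes tested. The mean log2 level of these markers was 7.36 to 7.49 in the knockouts and 7.40 to 8.09 in the wild types. Their summed level was 13.07 to 13.54 in the knockouts and 13.36 to 13.74 in the wild types. That sum was mostly Car3, which read 12.43 to 13.07 in the knockouts and 12.86 to 13.09 in the wild types. Car3 lay at the 99.9th percentile of all tested genes by level, as high as the fast fibre markers. The sum is therefore not read as fat cell content. No marker was listed at 0, and the dimmest value was 4.15, in Ucp1. The median difference of the list was -0.29. The 3 brightest were Car3, Fabp4 and Pnpla2, with differences of -0.27, -0.02 and -0.19. Whether these 3 are particular to fat cells in this muscle was not tested. The most negative, named after their values were seen like the other genes of this paragraph that follow, were those of Retn (-1.44), Lep (-1.15), Nnat (-1.06) and Plin1 (-0.57). Retn, which encodes the fat cell hormone resistin, read 7.79, 7.75 and 7.85 in the knockouts against 8.20, 9.64 and 9.87 in the wild types, without overlap, a difference about as large as that of Adhfe1 (± 0.37 SE; limma adjusted p = 0.102). Adipoq, which encodes the fat cell hormone adiponectin, read 8.33, 7.86 and 8.45 in the knockouts and 7.70, 9.14 and 9.10 in the wild types. The mean of the list in wild type array 1, 7.40, lay within the range of the knockouts, but single markers differed: Retn was above all knockouts on that array, and Adipoq, Cidec, Lipe, Plin1 and Ucp1 were below all of them. The part of fat cell content in the Adhfe1 values was not tested.

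Fibre markers were set beside Idh2 and Oxct1. The 11 slow oxidative fibre markers had a mean log2 level of 9.27, 9.01 and 10.21 in knockout arrays 1, 2 and 3, against 9.70 to 9.84 in the wild types, and a summed level of 13.51 to 14.20 in the knockouts and 13.82 to 13.85 in the wild types. Idh2 and Oxct1 were highest in knockout array 3 among the knockouts, where these markers were highest too, but were lowest in knockout array 1, where the markers were not. Of the 11 differences 8 were negative and 3 positive, with a median of -0.35. The unadjusted p was under 0.05 for 1 negative and 0 positive differences, beside 18.4% of all genes tested. Past the adjusted threshold in limma 1 gene fell and 0 rose, beside 0.995% of all genes tested. That gene was Myl3, named for its call, the slow ventricular-type essential light chain, at a difference of -1.23 ± 0.18 (SE; limma adjusted p = 0.0256). Mb, Myh2 and Myl2, the brightest, were at 0.17, 0.24 and -0.38, and of these Mb and Myh2 are not particular to slow fibres. Tnnc1, Tnni1, Tpm3, Tnnt1, Myh7 and Casq2, named after their values were seen, were at -0.67, -0.56, -0.37, -0.35, -0.31 and 0.44. The 11 fast glycolytic fibre markers had a mean level of 12.72 to 12.87 in the knockouts and 12.87 to 12.89 in the wild types, with 10 negative differences and 0 past the threshold in limma. Beside 18.4% of all genes tested, the unadjusted p was under 0.05 for 1 positive and 1 negative difference of these fast fibre markers. Their summed level was 16.22 to 16.36 in the knockouts and 16.39 to 16.40 in the wild types, and Atp2a1, Pvalb and Myh4 were at -0.11, -0.14 and -0.08. The part of fibre makeup in the Idh2 and Oxct1 values was not tested.

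**Figure D3:**
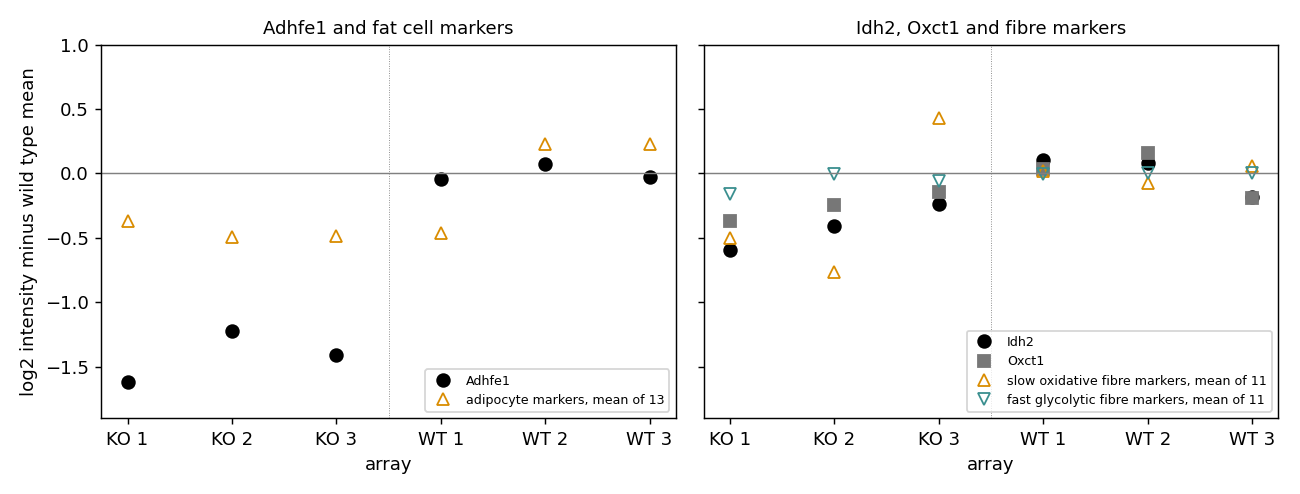
Log2 intensity minus the wild type mean on each array, for Adhfe1 beside the mean of 13 adipocyte markers (left) and for Idh2 and Oxct1 beside the means of 11 slow and 11 fast fibre markers (right). The adipocyte marker mean of wild type array 1 lies among those of the knockouts, and knockout array 3 is high in the slow fibre markers.

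Macrophage and tendon markers had positive differences, which stand beside every value above. All 10 macrophage markers had positive differences, 0 of them past the adjusted threshold in limma. The unadjusted p was under 0.05 in 8, beside 18.4% of all genes tested in either direction. The mean of the macrophage markers was 8.75, 7.96 and 7.87 in knockout arrays 1, 2 and 3, against 7.49 to 7.59 in the wild types. Lyz2, Mrc1 and C1qb, the brightest, were at 0.85, 0.61 and 0.70. All 7 tendon markers were positive too, 3 at an unadjusted p under 0.05, beside the same 18.4%, and 0 past the adjusted threshold in limma. The mean of the tendon markers was 9.56, 8.62 and 8.66 in knockout arrays 1, 2 and 3, against 8.02 to 8.51 in the wild types. Fmod, Thbs4 and Tnmd, the brightest, were at 0.07, 1.15 and 0.99. In both lists knockout array 1 had the highest mean. The summed levels were 11.68 to 12.54 in the knockouts and 11.19 to 11.35 in the wild types for macrophage markers, and 12.36 to 13.20 in the knockouts and 11.67 to 12.19 in the wild types for tendon markers. Liver markers, of which 4 of 5 were measured and 3 tested, had a mean level of 5.64 to 6.00 in the knockouts and 5.69 to 6.29 in the wild types, with Cyp2e1, Apoa1 and Alb at -0.23, -0.01 and -0.85. Cyp2e1 read 9.47 to 10.22 in the knockouts and 8.88 to 10.72 in the wild types, and the others measured read 5.51 at most. Cyp2e1 was lowest in wild type array 1, where Adipoq was lowest too. The 1 erythroid marker measured of 5, Alas2, was at -0.84. No marker of these lists was listed at 0, and their part in the values of the 7 enzymes was not tested.

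Position on the chromosome was not used to draw up the set. Of the 10 nearest named genes around Adhfe1, 5 on each side in the RefSeq order of GRCm38.p6, 6 were tested. In limma 0 of these passed after adjustment over all genes, beside 0.995% of all genes tested. At an unadjusted p of 0.05 the count was 0 too, beside 18.4%. Their differences ran from -0.29 to 0.21. Rrs1, a ribosome biogenesis factor and the next gene before Adhfe1, read 6.34, 5.90 and 5.71 in the knockouts against 6.31, 6.32 and 6.20 in the wild types. Vxn, the next gene after it, was at -0.07. Pcmtd1, St18, Vcpip1 and Sgk3 were at 0.02, 0.14, 0.21 and -0.13, and Alkal1, Sntg1, Mybl1 and Mcmdc2 were too dim to be tested. Of the 6 tested, Vcpip1 alone had knockouts above wild types without overlap, a pattern found in 11.1% of all genes. With so few genes, nothing particular to this stretch is read from these counts. D2hgdh and Idh1 lie on the same chromosome as Adhfe1, outside this group.

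**Figure D4:**
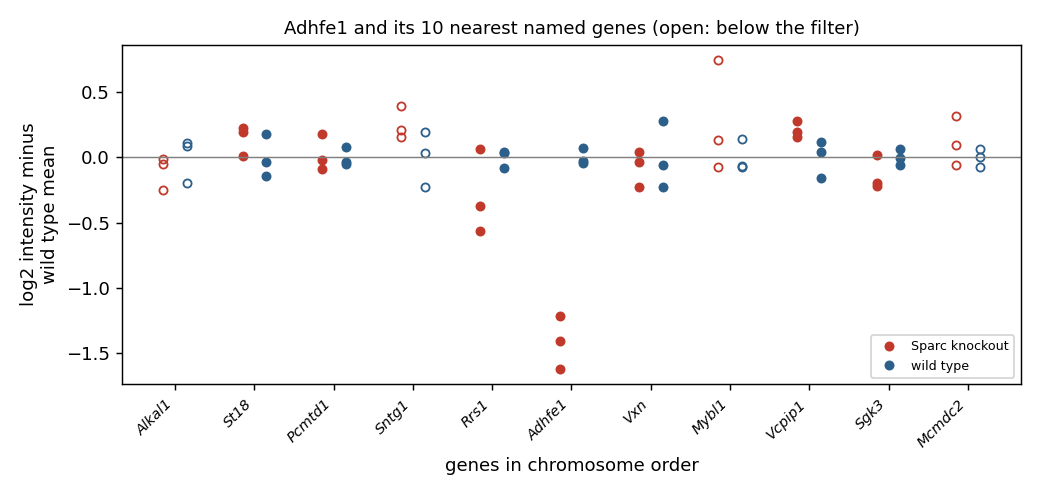
Log2 intensity minus the wild type mean on each array (knockouts red, wild types blue) for Adhfe1 and the 5 nearest named genes on each side, in chromosome order. The 3 Adhfe1 knockout values lie far below zero, and the mean differences of the 6 tested neighbours run from -0.29 to 0.21.

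The genes whose values over the 6 arrays were most like those of Adhfe1 by Pearson r were Trp73, a p53 family transcription factor (0.997), C1qtnf12, a secreted C1q-related protein (0.996), Trappc5, a vesicle tethering subunit (0.995), Dusp23, a phosphatase (0.995), Wdtc1 (0.993) and Dhrs7c, a muscle dehydrogenase (0.993). Within groups the r values were 0.81 to 0.90. Their differences were of unlike size, at -0.18 for Trp73, -0.64 for C1qtnf12, -0.63 for Trappc5, -1.01 for Dusp23, -0.46 for Wdtc1 and -0.92 for Dhrs7c. In all 6 the knockouts lay below the wild types without overlap, a pattern found in 13.8% of all genes. The choice by r with Adhfe1 brings this pattern with it, so nothing is read from it. In all, 261 tested genes had an r above 0.95 with Adhfe1, over 6 arrays that share the 2 genotype groups.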

How the data were processed

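Each of the 6 samples was 1 array. The authors deposited linear probe-set intensity values, which the submitters' processing notes credit to RMA in Expression Console 1.3.0.187 (Affymetrix). RMA corrects background and normalizes between arrays, and can shrink differences of dim genes. No detection calls were used, and precision depends on the number of arrays. The sources used here do not give the genome build of the probe sets. Log2 was taken here without an offset, although the planned design allowed for log2 values in the file. Of 35556 probe sets, 21789 carried 1 platform symbol, which can be old, 1621 carried several and 12146 none. All 7 enzymes matched RefSeq (GRCm38.p6) by Entrez ID. Genes with a mean under the 25th percentile (log2 3.90) were not tested.

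The genotype difference was fitted with limma (version 3.58.1, R 4.3.3) as a two-sided eBayes test with variance trend, Benjamini-Hochberg adjusted over 16487 genes at a threshold of 0.05. Its p-values measure the spread between these arrays. The code was tested on simulated data. The members, gene lists and tests were chosen with earlier results of these data known. Genes named were the 7 enzymes, Sparc, the 4 smallest p of each related list, the 5 neighbours on each side of Adhfe1, the 6 genes most like it and the 3 brightest of each marker list. Other genes (Akr7a5, the Idh3 subunits, Myl3, and further fat and slow fibre markers) were named after their values were seen. Alternatives changed the filter, scaling, variance model, array weights, probe-set choice, replicate block and arrays left out.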

Additional observations from a re-analysis of the deposited data

How the results depend on the processing

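Over the 15 alternatives Adhfe1 lay between -1.52 and -1.31, as a description. Idh2 lay between -0.50 and -0.32 and Oxct1 between -0.35 and -0.17, neither past the threshold in any of them (lowest adjusted p 0.116 and 0.218). The 4 differences near zero changed sign: Bdh1 was at -0.019 after median centring and Idh1 at -0.037 with array weights, and with 1 array left out D2hgdh ran from -0.076 to 0.21, Idh1 from -0.064 to 0.25, Bdh1 from -0.17 to 0.15 and Acat1 from -0.096 to 0.070. The count of all genes called was 103 after median centring, 329 with array weights and 27 to 1017 with 1 array left out. In the 2-oxoglutarate and hydroxyacid list 1 gene, Gpt2, passed with array weights, and 0 to 3 with 1 array left out. In the ketone body list 0 to 1 passed with 1 array left out. Hibadh was at -0.07 when its 2 probe sets were averaged.

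With the replicate number as a block, 123 genes were called, 1 gene passed in each of those lists (Gpt2 and Hmgcll1), and Adhfe1 stood at -1.42. The labels do not say that the numbers pair the arrays. Same-numbered arrays correlated at 0.01, 0.08 and -0.02 in their deviations from the group means, and 2 of 6 arrays correlated best with their own number. These values cannot settle whether the arrays were paired. The cause of the changed counts was not tested. Hmgcll1 was not among the genes tested under the 40th percentile filter.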
